A study of Williopsis jadinii with 8 samples.

Results

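A set of 200 transcripts of the yeast Candida utilis (listed by its synonym Williopsis jadinii) had a bright array signal in 3 kinds of culture. The cultures differed in sugar, time and strain, and members' group means were within 1.50-fold between the sugars and between the strains on xylose. They were chosen from the 8604 transcript names, or design IDs, of a one-colour Agilent array. For each array the processed signal of a probe was divided by that array's 75th percentile and taken to log2, and the probes of a design ID were averaged, so that a value of 0 equals the 75th percentile. A design ID qualified when its group means differed by less than 0.585 log2 units, or 1.50-fold, both between wild type on xylose and wild type on glucose and between TMS174 on xylose and wild type on xylose. Of the 8604, 3895 qualified, and the members are the 200 of these whose lowest group mean was highest. High level and small difference are therefore what chose the members, and both are given below as descriptions.

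Wild type (WT) was strain NBRC0988, sampled after 10.5 h on glucose in 3 cultures and after 24 h on xylose in 3 cultures. TMS174, described as a xylose-fermenting strain, was sampled after 24 h on xylose in 2 cultures. The study's title speaks of recombinant C. utilis and of rate-limiting steps in xylose use; the genotype of TMS174 and whether it is a single clone are not given in the sources used here. All cultures came from 3-day precultures on 20 g/L glucose, began at 0.1 OD600 units in 50 ml, and were stirred gently at 30 °C with limited air. The xylose medium held 50 g/L xylose and the glucose medium is given as 20 g/L glucose. This glucose value is uncertain because both main media carry the same number in their names. Every culture was also listed with peptone (20 g/L) and with yeast extract (10 g/L), so sugar was not the only nutrient supplied. Sugar and sampling time changed together, so WT on xylose against WT on glucose compares both at once. All WT arrays were on 1 slide and both TMS174 arrays on another, so any effect of the slide cannot be told apart from that of the strain. The series describes its replicates as independent experiments.

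In growing yeast, a small part of the genome supplies much of the messenger RNA: genes for ribosomal proteins, translation elongation factors, glycolytic enzymes, the plasma membrane proton pump and some chaperones are known for very high transcript levels. Several of these also respond to the carbon source and to growth rate, while others are used as reference transcripts because they vary little. Xylose enters yeast metabolism through xylose reductase, xylitol dehydrogenase and xylulokinase and then the pentose phosphate pathway, which joins glycolysis, so the enzymes below that junction serve both sugars. None of the members can be placed in these classes here: 0 of the 8604 design IDs matched a locus tag, symbol or accession among 6184 RefSeq genes of the species, so members are named by design ID and no probe or promoter sequence is shown.

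The members stood well clear of the detection limit. All 387 of their probes were well above background on all 8 arrays, none of their spots was an outlier and none was saturated; over all probes, 87.8% to 95.2% per array were well above background. Member probes ranged from 4903 intensity units on WT glucose replicate 3 to 201229 on WT glucose replicate 1, where the 75th percentile of the 8 arrays lay between 2958 and 4130. The brightest yeast probe on each array was a member's. In all, 187 of the 200 members (93.5%) were read by 2 probes and 13 by 1, against 76.8% of all design IDs with 2.

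The lowest group mean of the members ran from 5.27, or 38.7 times the 75th percentile, down to 1.91, with a median of 2.67; over all design IDs that median was −2.45. Group medians of the members' level were 2.86 on glucose, 2.76 in WT on xylose and 2.90 in TMS174. Brightness depends on the probe's sequence as well as on the amount of transcript, so the order of members by signal is not an order by transcript number. Of the 10 brightest design IDs on an array, 7 to 9 were members, of the 50 brightest 30 to 37, and of the 200 brightest 88 to 101. No member ranked below 646 on any array. Together the members carried 24.1%, 24.1% and 23.9% of the summed yeast signal on the glucose arrays, 22.8%, 23.9% and 23.3% on the WT xylose arrays and 24.5% and 24.7% on the TMS174 arrays. The WT xylose arrays were lowest in this share, replicate 2 by very little, and the TMS174 arrays were highest.

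**Figure D1:**
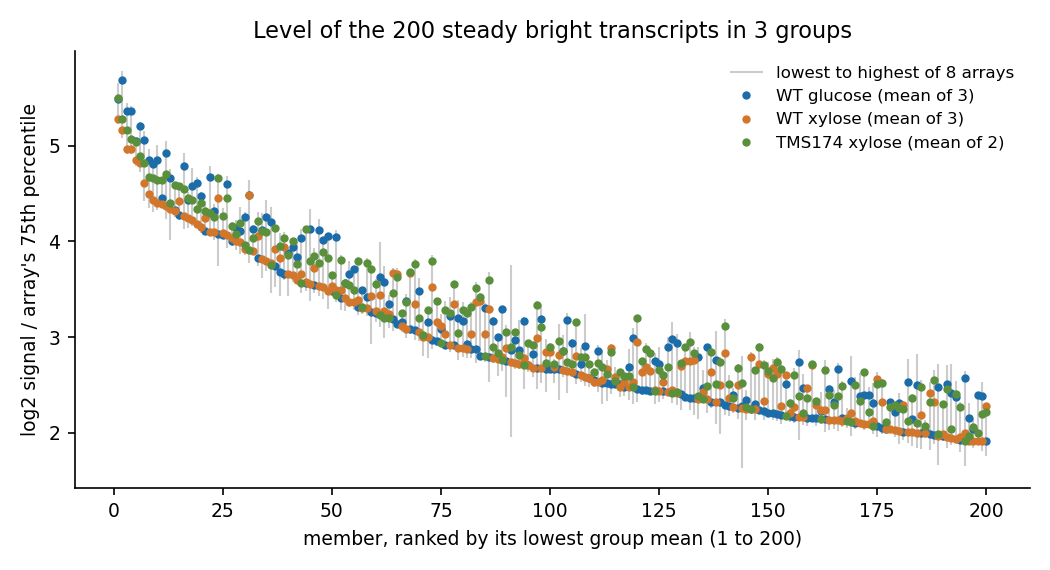
Level of each of the 200 members (log2 of signal over the array's 75th percentile) against its rank by lowest group mean, with coloured points for the 3 group means and grey bars from the lowest to the highest of the 8 arrays. Group means of a member lie at most 0.83 log2 units apart. The curve of lowest means falls from 5.27 at the first rank to 1.91 at the last, and a few long grey bars mark members whose replicate arrays differed.

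The brightest member by its lowest group mean was cut01g0030314. Its log2 level was 5.39, 5.57 and 5.52 on glucose, 5.23, 5.34 and 5.26 in WT on xylose, and 5.34 and 5.66 in TMS174. The 3 WT xylose arrays lay below all glucose arrays, while the TMS174 pair spanned the glucose values. The group means differed by −0.22 ± 0.10 (SE) for WT xylose minus glucose and by 0.23 ± 0.11 for TMS174 minus WT on xylose.

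The next was cut01g0040125, with 5.78, 5.66 and 5.62 on glucose, 5.08, 5.26 and 5.14 in WT on xylose, and 5.23 and 5.32 in TMS174. Here the glucose arrays were clear of all 5 xylose arrays, and the WT xylose mean was lower by 0.53 on the log2 scale, close to the limit of the rule. For cut01g0040391 the levels were 5.45, 5.31 and 5.32 on glucose, 4.91, 5.07 and 4.93 in WT on xylose, and 5.19 and 5.14 in TMS174. All 3 groups were apart for this member, with TMS174 between the other two. The fourth, cut01g0040831, read 5.42, 5.35 and 5.33, then 4.95, 5.03 and 4.92, then 5.07 and 5.06 in the same order of groups, and showed that order again.

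In cut01g0030493 the levels were 5.05, 5.07 and 5.01 on glucose, 4.80, 4.98 and 4.78 in WT on xylose, and 4.97 and 5.09 in TMS174, a range of 0.31 over the 8 arrays. TMS174 overlapped both other groups. Its neighbour cut01g0000116 had 5.25, 5.17 and 5.20, then 4.72, 4.94 and 4.79, then 4.82 and 4.95. There the glucose arrays alone stood apart. The remaining 4 of the 10 brightest, cut01g0170001, cut01g0000297, cut01g0000349 and cut01g0000517, had glucose means of 5.05, 4.85, 4.81 and 4.85, WT xylose means of 4.61, 4.50, 4.43 and 4.40, and TMS174 means of 4.82, 4.68, 4.67 and 4.64. In each of these 4 the glucose arrays lay above all other arrays. All of the 10 brightest had their lowest mean in WT on xylose, and all 10 had TMS174 above WT on xylose, by 0.07 to 0.24; under quantile normalization 7 of 10 were lower on xylose and 4 of 10 higher in TMS174, and under spike-in scaling 3 and 0.

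The edges of the set were not marked by a gap. The last members by level were cut01g0000365 at a lowest mean of 1.913 and cut01g0031126 at 1.910; the first design IDs outside were cut01g0000397 at 1.907 and cut01g0000828 at 1.905. Next to the limit for WT xylose minus glucose were cut01g0000443 at −0.583 and cut01g0040753 at 0.581, with cut01g0011016 at −0.586 and cut01g0000403 at −0.591 just outside. Beside the limit for TMS174 minus WT on xylose were cut01g0000100 at −0.570 and cut01g0020736 at 0.548 inside, and cut01g0001030 at 0.598 and cut01g0000328 at 0.599 outside. Of the 331 design IDs bright enough for the set, 131 were past a limit: 120 only between the sugars, 4 only between the strains and 7 in both. These 131 equally bright design IDs are the comparison set used below.

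**Figure D2:**
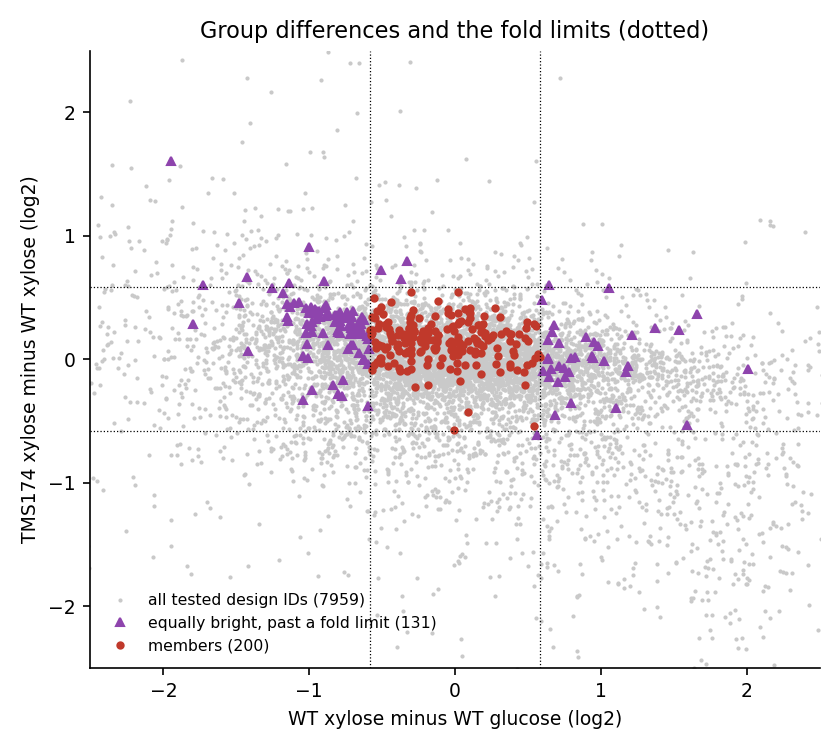
Difference between TMS174 and WT on xylose against the difference between WT on xylose and on glucose, both log2, for all 7959 design IDs that were tested (grey), the 200 members (red circles) and the 131 equally bright design IDs past a limit (purple triangles), with the limits dotted. A further 299 grey points lie outside the window of 2.5 log2 units either way. The red points fill the central square and sit mostly above the horizontal zero, and most purple points lie to its left.

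Between WT on xylose and WT on glucose the members' differences ran from −0.58 to 0.58 with a median of −0.12, against a median of 0.01 over all tested design IDs. The mean was below 0 in 119 members and above 0 in 81. As bulk RNA was hybridised, fewer cells with a transcript and less of it per cell cannot be told apart. A linear model with one mean per group over the 8 arrays (limma, Benjamini-Hochberg adjusted p under 0.05) called 104 of the 200, 39 higher on xylose and 65 lower, where 69.0% of all tested design IDs were called, 34.7% higher and 34.3% lower. The rule used this contrast, so nothing is read from the members' smaller share. The split between higher and lower depended on the scaling. Under quantile normalization 62 were called higher and 32 lower. Under median scaling the counts were 24 and 84, and under spike-in scaling 67 and 0. Spike-in scaling moved the median difference of all tested design IDs to 0.42. The share called over all tested design IDs is not given for these scalings, so nothing is read from the members' counts.

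The standard error of the members' difference between the sugars had a median of 0.09, against 0.11 over all tested design IDs. The 3 arrays of one group were clear of the 3 of the other in 120 members, where this held for 72.8% of all tested. In 125 members the whole 95% confidence interval of the difference lay inside the limit; over all tested design IDs that was so for 2377 of 7959. The number of arrays limits this precision.

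The member called higher on xylose with the largest difference was cut01g0040753, at 3.17, 3.05 and 3.04 on glucose, 3.66, 3.69 and 3.65 in WT on xylose, and 3.67 and 3.69 in TMS174. Its xylose arrays agreed within 0.05 whatever the strain and stood above every glucose array, with a difference of 0.58 ± 0.06 (SE). Next came cut01g0000106, with 2.85, 2.78 and 2.79, then 3.36, 3.46 and 3.30, then 3.42 and 3.42, which had the same form. On the other side, cut01g0000443 read 4.23, 4.04 and 4.08 on glucose, 3.48, 3.70 and 3.43 in WT on xylose, and 3.78 and 3.76 in TMS174. TMS174 lay between the WT groups, as it did for cut01g0020308, with 4.78, 4.64 and 4.60, then 4.06, 4.16 and 4.08, then 4.24 and 4.36.

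With the 75th percentile, a lower level on xylose was most frequent among the 50 brightest members by lowest group mean, a value the rule used. Among the 50 brightest members the median difference was −0.30 and 38 were below 0. The following groups of 50 had medians of −0.08, 0.03 and −0.07, with 29, 24 and 28 below 0. In the comparison set, whose differences had to be large in one contrast, 94 of 131 were below 0 between the sugars. Members' levels relative to all tested design IDs were lower on xylose by a median of 0.13 with the 75th percentile and, by construction, with any other single factor per array, but higher by 0.11 under quantile normalization and by 0.04 after the normexp background correction.

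Between TMS174 and WT on xylose the members' differences ran from −0.57 to 0.55, with a median of 0.15 against −0.04 over all tested design IDs. TMS174 was above WT in 166 of the 200 and below it in 34, while 44.6% of all tested design IDs were above 0. In successive groups of 50 members by lowest group mean, a value the rule used, 47, 39, 42 and 38 were above 0. Among the equally bright design IDs past a limit, 105 of 131 were above 0. The rule chose both sets by these same means, so nothing is read from these counts. Under quantile normalization 116 members were above 0, with a median of 0.03; under spike-in scaling 0 were, with a median of −0.40 against −0.59 for all tested. The count of 166 moved with single WT xylose arrays. WT xylose replicate 1 held the lowest of the 8 values in 71 members. Its members lay a median 0.05 below their group means, while those of replicate 2 lay 0.07 above. Without replicate 1 TMS174 was above WT in 157 members, with a median of 0.13. Without replicate 2 it was above in 172, with a median of 0.19. Without replicate 3 it was above in 165, with a median of 0.16. TMS174 was also the only group on its slide.

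Of these differences limma called 22, 19 higher and 3 lower in TMS174, where 17.5% of all tested design IDs were called, 7.34% higher and 10.2% lower. The arrays of both strains did not overlap in 119 members, against 59.8% of all tested, and the confidence interval lay inside the limit in 158 members and in 4358 of all 7959 tested. This contrast, too, was used by the rule. The count rests on few arrays: leaving out 1 of the WT glucose arrays gave 14 (replicate 1) or 33 (replicate 2), leaving out 1 of the WT xylose arrays gave 4 (replicate 1) or 2 (replicate 3), and leaving out 1 of the TMS174 arrays gave 3 (replicate 1) or 0 (replicate 2). In the last of these fits 28 members had an unadjusted p under 0.05. With 1 TMS174 array left, the spread comes from the WT groups alone and that array is assumed to vary as they do. Under quantile normalization 3 were called higher and 5 lower, and under spike-in scaling 0 higher and 43 lower. For these scalings and the fits with an array left out, no share over all tested design IDs is given. Nothing is therefore read from those counts about the members.

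Members close to the strain limit showed clear separation. In cut01g0020736 the levels were 3.48, 3.70 and 3.50 on glucose, 3.71, 3.52 and 3.51 in WT on xylose, and 4.13 and 4.12 in TMS174. Both WT groups overlapped and TMS174 stood above all 6 WT arrays, by 0.55 ± 0.10 (SE) over WT on xylose. The reverse was seen in cut01g0000100, with 4.53, 4.47 and 4.47, then 4.38, 4.64 and 4.43, then 4.05 and 3.78. Here TMS174 was below every WT array, by 0.57 on the log2 scale against WT on xylose.

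Another pair differed one way between the sugars and the opposite way between the strains. For cut01g0031174 the levels were 2.34, 2.40 and 2.44 on glucose, 2.03, 2.10 and 2.14 in WT on xylose, and 2.60 and 2.66 in TMS174. WT on xylose was the lowest group, and TMS174 lay above glucose. For cut01g0000537 they were 2.27, 2.21 and 2.28, then 2.84, 2.79 and 2.75, then 2.29 and 2.22. WT on xylose was the high group here, and TMS174 overlapped glucose, with differences of 0.54 ± 0.06 and −0.54 ± 0.07 (SE). The contrasts share the WT xylose arrays, so an error in those arrays enters both with opposite sign.

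TMS174 on xylose against WT on glucose was not limited by the rule itself but is the sum of both limited differences, so it too is a description. The difference stayed under 0.585 in 187 of the 200 members, where 54.0% of all tested design IDs did, and 13 members were past it. The median was 0.03 for members and −0.04 for all tested, and differences ran from −0.66 to 0.83. Of the members 88 were called, 61 higher in TMS174 and 27 lower, where 63.0% of all tested were called, 29.6% higher and 33.4% lower; without TMS174 replicate 1 the members' count was 43 and without replicate 2 it was 55, with the spread again taken from the WT groups alone. Under spike-in scaling 4 were called higher and 19 lower. No share over all tested design IDs is given for these other fits, so nothing is read from their counts. The arrays did not overlap in 137 members, against 76.1% of all tested.

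In every member past this limit the sugar and strain differences had the same sign, which the rule's limits make necessary. The largest was cut01g0010340, at 2.28, 2.41 and 2.18 on glucose, 2.77, 2.93 and 2.80 in WT on xylose, and 3.19 and 3.05 in TMS174. Its 3 groups did not overlap and formed steps of 0.54 and 0.29, for a sum of 0.83 ± 0.10 (SE). In cut01g0001224 the levels were 2.88, 3.16 and 2.87, then 3.45, 3.59 and 3.53, then 3.86 and 3.73, with the same stepwise order. Among those lower in TMS174, cut01g0000479 had 4.09, 3.93 and 4.12, then 3.43, 3.56 and 3.48, then 3.36 and 3.52, so both xylose groups overlapped below glucose. The lowest of all, cut01g0010736, read 2.64, 2.61 and 2.48, then 2.36, 1.99 and 1.65, then 1.70 and 2.14. Its xylose arrays were scattered over more than its difference between the strains, and its difference from glucose, −0.66, had an SE of 0.22.

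Some members hardly differed between any of the groups. The smallest range of the 3 group means, 0.03, was that of cut01g0021077, at 3.01, 2.85 and 3.18 on glucose, 2.80, 3.16 and 3.03 in WT on xylose, and 3.08 and 2.97 in TMS174. Its replicates varied more than its means, with a pooled SD of 0.16. The same small range of means in cut01g0040377 came with arrays at 2.05, 2.25 and 2.12, then 2.08, 2.24 and 2.13, then 2.12 and 2.13. In both, all groups overlapped.

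For cut01g0001451 the levels were 2.75, 2.73 and 2.52, then 2.65, 2.73 and 2.68, then 2.77 and 2.67. Those of cut01g0000668 were 2.47, 2.49 and 2.58, then 2.48, 2.68 and 2.57, then 2.57 and 2.51. No group of either stood clear of another. Of the 5 members with the smallest range of means, cut01g0000409 was also the closest over single arrays, at 2.07, 2.05 and 2.01, then 2.01, 2.09 and 2.03, then 2.15 and 2.08, and its range over the 8 arrays, 0.14, was the smallest of the set. Only its TMS174 arrays sat slightly above the glucose arrays. Over all members the range across 8 arrays had a median of 0.56 and reached 1.80, against a median of 0.99 over all tested design IDs. It stayed under 0.585 in 111 members, where this held for 24.0% of all tested; the rule limited the group means behind this range, so nothing is read from that share. It exceeded 1 in 5 members.

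Spread between replicate arrays was not what the rule limited, although a design ID with a large spread had less chance of a small difference in means. The pooled SD had a median of 0.102 log2 units over the members, with quartiles of 0.0750 and 0.141, against 0.131 over the equally bright design IDs past a limit and 0.142 over all tested. It was under 0.1 in 97 members, or 48.5%, compared with 29.8% and 30.5% of those sets. By group, the members' median SD was 0.0962 on glucose, 0.0878 in WT on xylose and 0.0665 in TMS174; over all tested design IDs it was 0.154, 0.106 and 0.0715. The order of the groups was the same in both, and the TMS174 value comes from 2 arrays.

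**Figure D3:**
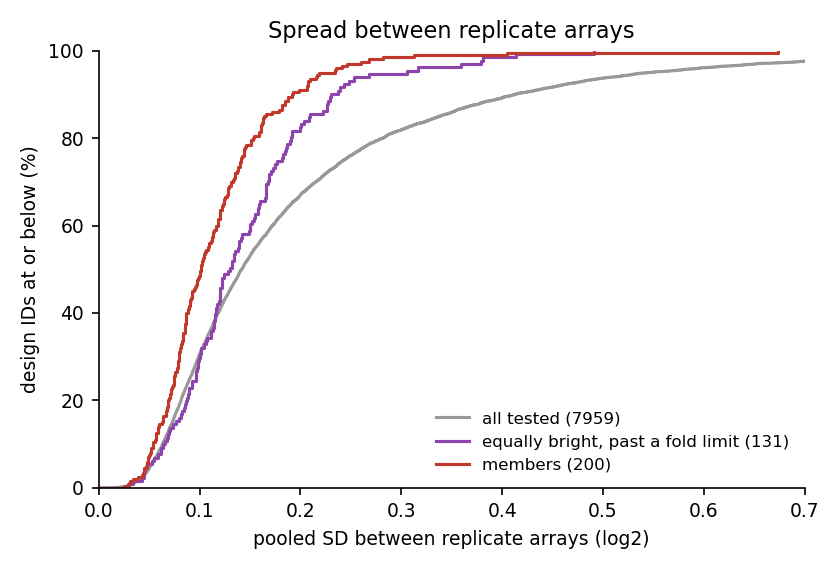
Cumulative share of design IDs (%) at or below each pooled SD between replicate arrays (log2, axis ending at 0.7) for the members, the equally bright design IDs past a limit and all tested design IDs. The members' curve lies to the left of both others over most of its height, with medians of 0.102, 0.131 and 0.142.

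The tightest replicates did not belong to the steadiest means. The smallest pooled SD, 0.025, was that of cut01g0040859, at 2.31, 2.33 and 2.32 on glucose, 2.05, 2.01 and 2.05 in WT on xylose, and 2.30 and 2.23 in TMS174. WT on xylose was lower by 0.28 on the log2 scale, more than 10 times that SD, and TMS174 lay just below glucose. Similarly tight, cut01g0010849 had 2.14, 2.17 and 2.17, then 2.67, 2.75 and 2.69, then 2.73 and 2.70, and both xylose groups lay above WT on glucose, WT by 0.55 and TMS174 by 0.56. Another, cut01g0040536, read 2.40, 2.38 and 2.41, then 1.88, 1.95 and 1.90, then 1.97 and 2.02, and both xylose groups lay below WT on glucose. TMS174 was not sampled on glucose, so no sugar difference within that strain is given.

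At the other end, 18 members had a pooled SD over 0.2, and their similar means hid different arrays. The largest was that of cut01g0060186, 0.673, with 2.89, 3.76 and 1.95 on glucose, 2.12, 3.18 and 2.92 in WT on xylose, and 3.02 and 2.77 in TMS174. Replicates 2 and 3 on glucose differed by 1.80, the widest range of any member, so the difference of −0.12 between the sugars had a 95% confidence interval from −1.23 to 0.98, and steadiness was not shown for it. In cut01g0020400 the levels were 2.80, 1.63 and 2.40, then 2.36, 2.41 and 1.999, then 2.43 and 2.61. For cut01g0030627 they were 2.72, 1.97 and 2.82, then 1.84, 1.99 and 2.16, then 2.14 and 2.07. WT glucose replicate 2 was the highest of its group in the first of these members and by far the lowest in the other two. Over all members it had the widest deviations from the group mean, with an SD of 0.158 against 0.0677 to 0.116 on the other arrays.

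Steadiness was then looked at in arrays that a choice had not used. The rule was applied without the arrays numbered 1, which gave 200 design IDs, 183 of them members, and their differences were read between the arrays numbered 1 alone. WT xylose minus glucose was under 0.585 in 156 of them (78%), where 49.9% of all tested design IDs were under it and 13 of 113 design IDs that were as bright but not chosen (11.5%). Here and below, the bright ones not chosen were past a limit in the arrays used for the choice. Their selection therefore favoured a low share, and nothing is read from it. Without the arrays numbered 1 or 2, the choice rested on 1 TMS174 array. TMS174 minus WT on xylose was under the limit in 196 (98%), against 80.0% of all tested. The bright ones not chosen were also above all tested, at 86.7%. Both differences were under the limit in 154 of the chosen, where 44.1% of all tested met both.

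Leaving out the arrays numbered 2 gave 178 members among the 200 chosen, and in those arrays 178 of the 200 (89%) were under the limit between the sugars, where 52.7% of all tested were. In the same arrays the strain difference was under it in 196 (98%, all tested 83.9%), and both were in 175 (all tested 48.4%). Among 155 design IDs as bright but not chosen, 65 (41.9%) were under the sugar limit there and 146 (94.2%) under the strain limit, close to the share of the chosen. The third pair of WT arrays, for which TMS174 has no counterpart, had 176 of 200 (88%) under the sugar limit, where 50.6% of all tested were, and 18 of 124 (14.5%) of the bright ones not chosen. The largest sugar differences among chosen design IDs in the arrays left out were 0.955, 1.44 and 1.07, so a steady mean did not ensure a steady single pair of arrays.

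**Figure D4:**
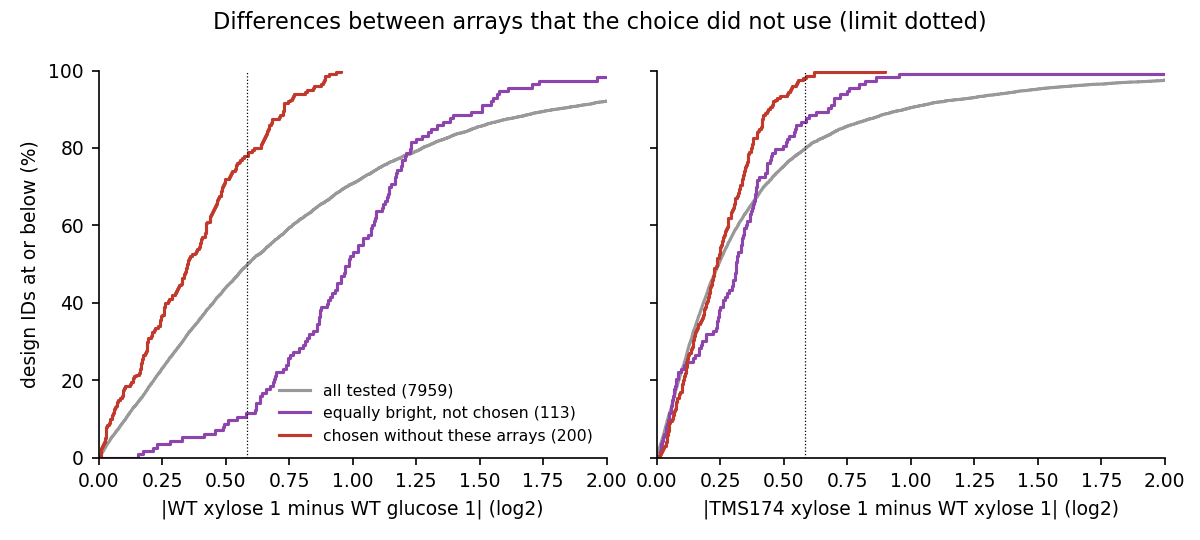
Cumulative share of design IDs (%) at or below each absolute log2 difference between the arrays numbered 1, for 200 design IDs chosen without those arrays, 113 design IDs as bright but not chosen, and all 7959 tested, with the sugar comparison on the left, the strain comparison on the right and the limit of 0.585 dotted. At the limit the chosen design IDs reach 78% on the left and 98% on the right, all tested reach 49.9% and 80.0%, and those bright but not chosen reach 11.5% and 86.7%. Those not chosen were past a limit in the arrays used for the choice.

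Probes of one member gave nearly the same difference. Over the 187 members with 2 probes, the gap between the probes' sugar differences had a median of 0.06 log2 units, against 0.12 over 107 equally bright design IDs past a limit and 0.07 over 6454 tested design IDs with 2 probes. It was under 0.1 in 145 members (77.5%), compared with 43.9% and 63.3%. By the rule, members had small differences and the comparison set a large one, so nothing is read from the members' smaller gap. The gap for the strain difference had a median of 0.05 in members, 0.08 in the comparison set and 0.07 over all. In 170 of the 187, both probes kept within both limits, and in 17 a probe was past one.

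The probes of 22 of these 187 members had opposite signs between the sugars, compared with 414 of the 6454 tested design IDs and 0 of the 107 in the comparison set; the rule keeps differences near 0, where signs change easily. The gap was widest in cut01g0021008, whose probes read −0.31 and 0.20, and in cut01g0021123, whose probes read −0.18 and 0.32. The averaged levels of cut01g0021008 were 4.52, 4.39 and 4.44 on glucose, 4.35, 4.48 and 4.35 in WT on xylose, and 4.67 and 4.62 in TMS174. Those of cut01g0021123 were 3.27, 3.44 and 3.24, then 3.40, 3.38 and 3.38, then 3.84 and 3.75. In both the WT groups overlapped and TMS174 stood above all WT arrays, and both probes gave a higher level in TMS174 than in WT on xylose, by 0.20 and 0.29 in the first and by 0.38 and 0.44 in the second.

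The numbers in the design IDs carry a series and a running number, whose meaning the sources used here do not state. Of the 488 series, 15 held a member, and 192 members (96%) were in the series 000 to 007, which hold 90.0% of all design IDs and 95.4% of the equally bright ones past a limit. Within those 8 series the share of design IDs that were members ran from 1.87% to 3.15%. Of 391 design IDs with a number next to a member's, counted once for each such member, 20 were members too (5.12%), where members make up 2.32% of all design IDs. These formed 9 runs of consecutive numbers with 19 members.

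The longest run held 3 members, cut01g0010035 to cut01g0010037. The first had 4.003, 3.89 and 3.94 on glucose, 3.58, 3.78 and 3.58 in WT on xylose, and 4.04 and 3.97 in TMS174. The second had 2.24, 2.46 and 2.39, then 2.75, 2.80 and 2.69, then 2.85 and 3.06. The third had 4.04, 4.03 and 3.98, then 3.40, 3.71 and 3.46, then 3.83 and 3.95. The outer 2 were lower in WT on xylose than on glucose, by 0.30 and 0.49 on the log2 scale, while the middle one was higher by 0.38, and all 3 were higher in TMS174 than in WT on xylose, by 0.36, 0.20 and 0.36. Under spike-in scaling none of the members, these 3 included, was higher in TMS174.

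Steadiness is relative to the scale set for each array. The 75th percentile rose against the signal of 6 spike-in probes in WT on xylose: it lay 1.46, 1.71 and 1.50 log2 units above them on glucose, 2.22, 1.84 and 1.82 in WT on xylose, and 1.47 and 1.35 in TMS174. The WT xylose arrays were above all others by this measure. Scaling to the spike-in probes accordingly moved the median of all tested design IDs to 0.42 between the sugars and −0.59 between the strains, and members to 0.29 and −0.40. On that scale 139 of the 200 members stayed within both limits, against 185 under quantile normalization, 176 under median scaling, 194 after normexp background correction and 200 with the deposited value table.

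Under all 6 scalings and corrections, 117 members stayed within both limits, and 161 did when spike-in scaling was left out. The 75th percentile is the rule's own scale. The deposited value table shifted the median of all tested design IDs from it by only 0.0005 between the sugars and −0.001 between the strains. Members could therefore hardly pass a limit under either. Of the 10 brightest members 9 were among the 117, the exception being cut01g0040125, which passed the limit under median scaling. Of the 5 with the smallest range of means 4 were, the exception being cut01g0000668, which passed the limit under spike-in scaling.

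**Figure D5:**
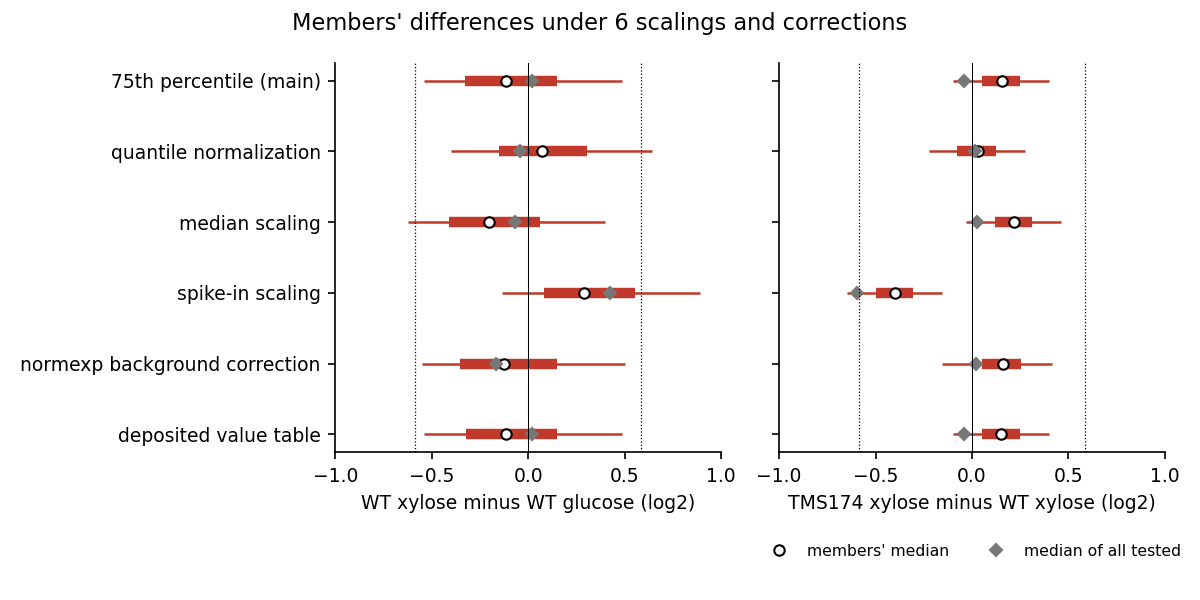
Members' log2 differences between the sugars (left) and between the strains on xylose (right) under 6 scalings and corrections; thick bars span the quartiles, thin lines the 5th to 95th percentiles, circles mark the members' median, diamonds the median of all tested design IDs, and dotted lines the limits. The members' median between the strains is 0.15 with the 75th percentile, 0.03 under quantile normalization and −0.40 under spike-in scaling, where the median of all tested is −0.59.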

How the data were processed

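Total RNA of 8 cultures was labelled with Cy3 (500 ng each) and read on one-colour Agilent arrays; the software was Feature Extraction 9.5.3.1, as both the submitters' processing notes and the file headers state. Scanner files as deposited give each of 15744 spots a processed signal intensity on a linear scale, background-subtracted by the authors' software and not normalized between arrays, median spot and background intensities, and quality flags. A deposited value table gives a linear ratio of that signal to 1 number per array; the authors' choice of it is not stated in these sources, and its column centring and scale enter only as an alternative.

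From the intensities, 536 control spots were left out, each array was divided by its 75th percentile and log2 was taken. The rule was applied to all 15208 yeast probes. For the fit, the filter kept 14195 probes with 2 or more arrays well above background, and outlier spots were left out, which gave 7966 design IDs; 7 whose only spot was such an outlier on an array were dropped, and 7959 were tested. limma 3.58.1 in R 4.3.3 fitted 1 mean per group over all 8 arrays, with p-values adjusted (Benjamini-Hochberg) over all 7959 and a threshold of 0.05; it was tested on simulated data. A difference ± SE is this fit's. Alternatives were quantile, median and spike-in scaling, normexp with an offset of 50 (on median spot intensities, as the mean signal was not in the files, where the plan had been spot signals in general), the deposited value table, other filters, 1 probe per design ID, arrays left out, a replicate block, array weights and another spread model.

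Members, lists and tests were chosen with earlier results of these data known. Members named are the 10 brightest, the 5 with the steadiest means, 3 with the smallest and 3 with the largest replicate SD, those next to each limit, up to 2 called in each direction and comparison with the largest differences, the longest run of numbers, and the 2 whose probes differ most. Lists of gene symbols could not be applied, since no design ID has a gene name here.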

Additional observations from a re-analysis of the deposited data

How the results depend on the processing

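Arrays per group (3, 3 and 2) limit the precision, genes cannot be named, and slide and sampling time are tied to strain and sugar. The members' count called between the sugars (104) was 67, all higher, under spike-in scaling and 77 to 99 with an array left out. The count called between the strains (22) was 8 under quantile normalization, 34 under median scaling, 43 under spike-in scaling, 11 with the first probe of each design ID, 61 with array weights, and 0 to 33 with an array left out. In TMS174 against WT on glucose (88) it was 23 under spike-in scaling and 43 to 93 with an array left out. Fewer arrays is what the last of these settings changes. Median and spike-in scaling change only 1 number per array, so every difference in a comparison moves by the same constant. For the others the cause was not tested. No share called over all tested design IDs is given for any of these settings, so nothing is read from the members' counts. Chosen again by the rule, 132 members were kept under spike-in scaling, 88 with a limit of 0.3, and 184 to 198 with an array left out. The median replicate SD was 0.179 under spike-in scaling and 0.0886 to 0.105 with an array left out. Among design IDs chosen without the arrays numbered 1, 98 kept both limits in those arrays under spike-in scaling. After normexp correction the members' share of the summed signal was 23.7% on glucose and 24.4% in TMS174. Between WT arrays with the same replicate numbers, deviations from the group means correlated by 0.02, 0.18 and 0.08 across design IDs. With different numbers they correlated by −0.22 to 0.12. Deviations within a group sum to 0, so these values cannot decide whether cultures were paired. The labels give only replicate numbers, which were not taken as pairs. With the numbers as a replicate block, 99, 3 and 69 members were called in the 3 comparisons in the order above.

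Spike-in scaling adds 1 constant to every design ID, 0.41 between the sugars and −0.55 between the strains, so the signs it turns are of differences smaller than that constant and tell nothing particular of these members. It turned 8 called sugar differences of members named above to higher on xylose: 0.0143 for cut01g0040391, 0.00661 for cut01g0040831, 0.0223 for cut01g0000116, 0.0587 for cut01g0000297, 0.024 for cut01g0000349, 0.126 for cut01g0040859, 0.102 for cut01g0031174 and 0.105 for cut01g0010035. Quantile normalization turned that of cut01g0000297 to 0.0214. Spike-in scaling turned 4 called strain differences to lower in TMS174: −0.00655 for cut01g0020736, −0.0123 for cut01g0031174, −0.197 for cut01g0010035 and −0.149 for cut01g0021123.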
